A study of Mus musculus with 6 samples.

Results

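Transcripts of 8 marker genes of horizontal basal cells were measured in whole olfactory epithelium of mouse embryos. They were the keratins Krt5, Krt14, Krt15 and Krt17, the transcription factor Trp63, and the surface proteins Icam1, Cd44 and Cdh13. A gene was included when a transcript cluster of the array was annotated with its symbol alone, and all 8 were found, each with 1 cluster, among 14813 genes measured this way. The arrays came from embryos at ED18.5, shortly before birth, labelled Emx2 knockout or Emx2 homozygous wildtype. The question put to these arrays is what the loss of Emx2, a transcription factor with a homeodomain, does to transcript levels in the dissected epithelium. Total RNA of 3 animals was pooled for every array, with 3 arrays and 9 animals per genotype. The sources used here do not give the strain, the sex or the nature of the Emx2 allele.

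The olfactory epithelium is renewed throughout life by basal stem cells. Globose basal cells divide and give rise to the neurons, while horizontal basal cells lie flat on the basement membrane, mostly at rest, and act as a reserve that is called on after injury. In mice, Trp63 (p63) holds horizontal basal cells in this resting state, and its loss lets them become active. The keratins Krt5 and Krt14 form the paired intermediate filaments of basal epithelial cells. None of the markers belongs to horizontal basal cells alone: the keratins and Trp63 are also made by basal cells of respiratory and squamous epithelium, and Icam1, Cd44 and Cdh13 by blood vessels, leukocytes or connective tissue. In RNA from a whole tissue, fewer cells of a type and less RNA per cell cannot be told apart. How far the layer of horizontal basal cells had formed at ED18.5 was not measured here.

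Values are log2 RMA signals, where 1 unit is a doubling. Emx2 itself was at 8.38, 8.33 and 8.39 in the arrays labelled knockout and at 8.37, 8.59 and 8.36 in the wildtype arrays (log2 difference -0.07, limma adjusted p = 0.894). Its cluster gives 1 value over all probes, and whether those probes lie in the deleted part is not given here, so the genotypes rest on the labels alone. Y-linked Eif2s3y lay between 7.78 and 8.89 in knockout replicates 2 and 3 and wildtype replicate 2, and between 3.30 and 3.69 in the other arrays, so the pools also differed in sex. Genes of cornifying squamous epithelium stood high in knockout replicate 3 and wildtype replicate 3. The array medians ran from 7.64 to 7.73, and precision is limited by having 3 arrays per genotype.

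The RefSeq promoter table (build GRCm38.p6) held windows for 4 of the 8 genes, each running from 250 bases before to 50 bases after an annotated start. Those of the keratin pair Krt5 and Krt14, and that of Icam1, a known target of NF-kappaB, are shown so that the sequence near this annotated start can be read. Whether it is the main start of each gene in this tissue was not examined. Capitals mark matches on either strand to CATG, the core of a half-site of the p53 family to which p63 belongs, to GGAAATTCC, an NF-kappaB site, or to TATAAA, the letters of a TATA box.
Krt5, chr15:101712856-101713155, minus strand: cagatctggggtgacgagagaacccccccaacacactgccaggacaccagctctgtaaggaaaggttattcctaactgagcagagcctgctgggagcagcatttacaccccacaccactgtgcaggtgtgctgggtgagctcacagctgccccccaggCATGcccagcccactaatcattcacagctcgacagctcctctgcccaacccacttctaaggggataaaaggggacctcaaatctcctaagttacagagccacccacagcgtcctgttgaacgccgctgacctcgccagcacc
Krt14, chr11:100205981-100206280, minus strand: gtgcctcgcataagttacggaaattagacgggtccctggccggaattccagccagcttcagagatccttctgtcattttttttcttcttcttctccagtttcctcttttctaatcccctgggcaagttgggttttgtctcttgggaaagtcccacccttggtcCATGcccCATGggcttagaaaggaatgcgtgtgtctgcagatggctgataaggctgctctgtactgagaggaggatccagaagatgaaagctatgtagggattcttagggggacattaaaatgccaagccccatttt
Icam1, chr9:21015690-21015989, plus strand: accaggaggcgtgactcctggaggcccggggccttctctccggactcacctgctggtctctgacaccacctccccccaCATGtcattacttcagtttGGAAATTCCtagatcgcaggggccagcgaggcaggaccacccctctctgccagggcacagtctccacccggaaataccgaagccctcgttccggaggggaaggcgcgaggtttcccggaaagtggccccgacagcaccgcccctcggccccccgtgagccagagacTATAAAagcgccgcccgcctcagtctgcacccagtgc
The Krt5 window held 1 CATG, the Krt14 window 2 close together, and the Icam1 window 1, a motif present in 61.1% of all 32851 windows of the table. GGAAATTCC, found in 0.317% of the windows, occurred once in the Icam1 window, at position -153 relative to the annotated start. TATAAA, found in 13.6% of the windows, was in the Icam1 window, at position 14 after the annotated start, and not in those of Krt5 and Krt14. Only exact matches were sought, so near variants of a motif were not counted. The homeodomain core TAATTA, found in 5.29% of the windows, was in none of these windows. The motifs do not overlap one another in these sequences, and a match is a description of letters, not of a bound site. The fourth window, that of Cd44, held none of the 4 motifs.

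Horizontal basal cell markers differed little between the genotypes, with log2 differences (arrays labelled knockout minus wildtype arrays) between -0.26 and 0.18. Of the 8 genes, 0 passed the test in either direction (limma, adjusted p at or under 0.05 over 16661 clusters), where 2.04% of all clusters did, 1.90% lower and 0.144% higher in the arrays labelled knockout. At an unadjusted p under 0.05 there was 1 of 8, Krt17, against 10.1% of all clusters. The arrays labelled knockout were on average lower than the wildtype arrays for 5 genes and higher for 3. Over all 16661 clusters they were lower for 10270 and higher for 6391. The median log2 difference was -0.05 over the 8 genes and -0.04 over all clusters. For 6 of the 8 genes the group means differed by less than the larger of the SDs of the groups.

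Krt5, the type II keratin that defines basal cells, was at 8.81, 8.36 and 8.69 in the arrays labelled knockout and at 8.92, 8.61 and 8.61 in the wildtype arrays. The groups overlapped, and the lowest and the highest values were knockout replicate 2 and wildtype replicate 1. The log2 difference was -0.10 (SE 0.15; 95% interval -0.45 to 0.26; limma adjusted p = 0.917), and its sign turned without knockout replicate 2 (0.0338) or wildtype replicate 1 (0.0069).

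Krt14, the type I partner of Krt5, was at 8.75, 8.23 and 8.34 in the arrays labelled knockout and at 8.54, 8.42 and 8.49 in the wildtype arrays. All 3 wildtype values lay inside the span of the knockout values, whose SD was 0.28 against 0.06 in the wildtype arrays (n = 3 each). The log2 difference was -0.04 (SE 0.14; 95% interval -0.39 to 0.30; limma adjusted p = 0.968), and its sign turned when knockout replicate 2 or knockout replicate 3 was left out (0.061 and 0.0048). Krt5 minus Krt14 averaged 0.18 ± 0.15 in the arrays labelled knockout and 0.23 ± 0.13 in the wildtype arrays (log2, SD, n = 3 each), a comparison between genotypes only, since levels of different probes are on different scales.

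Krt15 and Krt17, further type I keratins of basal and regenerating epithelium, had the largest measured differences of the 8. Krt15 was at 9.57, 9.26 and 9.49 in the arrays labelled knockout and at 9.43, 9.72 and 9.86 in the wildtype arrays. The groups overlapped because wildtype replicate 1 lay below knockout replicates 1 and 3, and the log2 difference was -0.23 (SE 0.14; 95% interval -0.56 to 0.10; limma adjusted p = 0.700).

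Krt17 was at 7.81, 7.73 and 7.92 in the arrays labelled knockout and at 7.95, 8.18 and 8.12 in the wildtype arrays. It was the only one of the 8 whose groups did not overlap, by a margin of 0.03 between knockout replicate 3 and wildtype replicate 1, while 15.5% of all clusters were separated in this way, 12.0% in this lower direction and 3.51% in the higher one. The log2 difference was -0.26 (SE 0.10; 95% interval -0.50 to -0.03), a fold of 0.833, with an unadjusted p = 0.0316 and an adjusted p = 0.409 (limma), so it did not pass. In the GRCm38.p6 gene table the keratins Krt15, Krt19, Krt9, Krt14, Krt16 and Krt17 follow one another in this order, with a long non-coding RNA gene before Krt9 and 2 pseudogenes between Krt14 and Krt16, and probes may not tell closely related keratins apart, which leaves the value of any 1 of them uncertain.

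Trp63, which encodes p63, was at 7.42, 7.14 and 7.29 in the arrays labelled knockout and at 7.32, 7.25 and 6.96 in the wildtype arrays. The groups overlapped, with wildtype replicate 3 lowest. The genotypes differed by 0.11 on the log2 scale (SE 0.13; 95% interval -0.20 to 0.41; limma adjusted p = 0.884), and it was -0.0017 without wildtype replicate 3. The cluster gives 1 value over the gene, so the long and the short (N-terminally truncated) p63 forms, which start at different promoters, were not separated here.

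Icam1, an adhesion protein bound by leukocyte integrins and used to isolate horizontal basal cells, was at 7.19, 7.20 and 7.38 in the arrays labelled knockout and at 7.29, 7.27 and 7.35 in the wildtype arrays. It varied least of the 8, over a span of 0.20 across all 6 arrays, and its log2 difference was -0.05 (SE 0.09; 95% interval -0.26 to 0.16; limma adjusted p = 0.941).

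Cd44, the receptor for hyaluronan, was at 7.18, 6.84 and 7.12 in the arrays labelled knockout and at 7.11, 6.91 and 6.59 in the wildtype arrays. As for Trp63, wildtype replicate 3 was lowest and the groups overlapped. Its log2 difference was 0.18 (SE 0.16; 95% interval -0.20 to 0.55; limma adjusted p = 0.826), and it was 0.03 without wildtype replicate 3.

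Cdh13, a cadherin anchored to the membrane by a lipid, was at 7.70, 7.58 and 7.37 in the arrays labelled knockout and at 7.44, 7.44 and 7.54 in the wildtype arrays. All 3 wildtype values again lay inside the span of the knockout values, and the difference was 0.08 on the log2 scale (SE 0.11; 95% interval -0.18 to 0.33; limma adjusted p = 0.908).

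**Figure D1:**
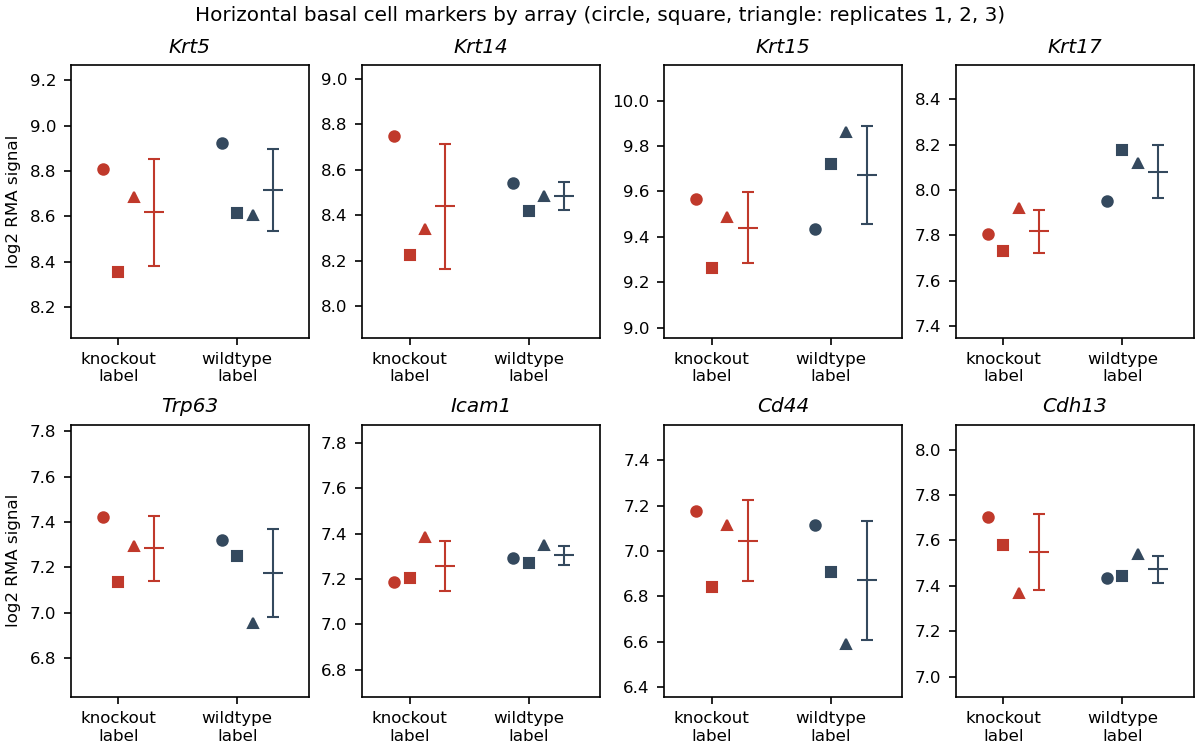
Log2 RMA signal (y axis, each panel spanning the same number of log2 units) of the 8 markers in the 3 arrays labelled knockout (red) and the 3 wildtype arrays (dark blue), with the mean ± SD beside the points. The groups overlap in every panel but that of Krt17, where the values are 7.73 to 7.92 in the arrays labelled knockout and 7.95 to 8.18 in the wildtype arrays.

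The intervals show how large a change these arrays leave room for. Taken 1 gene at a time in the main fit, the 95% interval excluded a 1.5-fold lower and a 1.5-fold higher level for all 8 genes. The bounds ran from a fold of 0.678 (Krt15) to a fold of 1.463 (Cd44). The interval contained no change for 7 genes, Krt17 being the exception. These intervals hold for each gene separately and not for the 8 together, and smaller changes could not be resolved with 3 arrays per genotype. The 1.5-fold bound did not hold under every alternative. With Y-linked signal as a covariate, Cd44 was at 0.19 with an SE of 0.18, against 0.16 in the main fit. Without knockout replicate 3 and wildtype replicate 3, Krt5 was at -0.19 with an SE of 0.20, against 0.15. Both intervals then reached past 1.5-fold. These 2 are examples, not a full list. Krt15 had an SE of 0.15 at -0.23 with the replicate number as a block, against 0.14 in the main fit. With single arrays left out, the log2 difference reached 0.30 for Cd44 and -0.35 for Krt15. The 1.5-fold bound is therefore given for the main fit only.

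**Figure D2:**
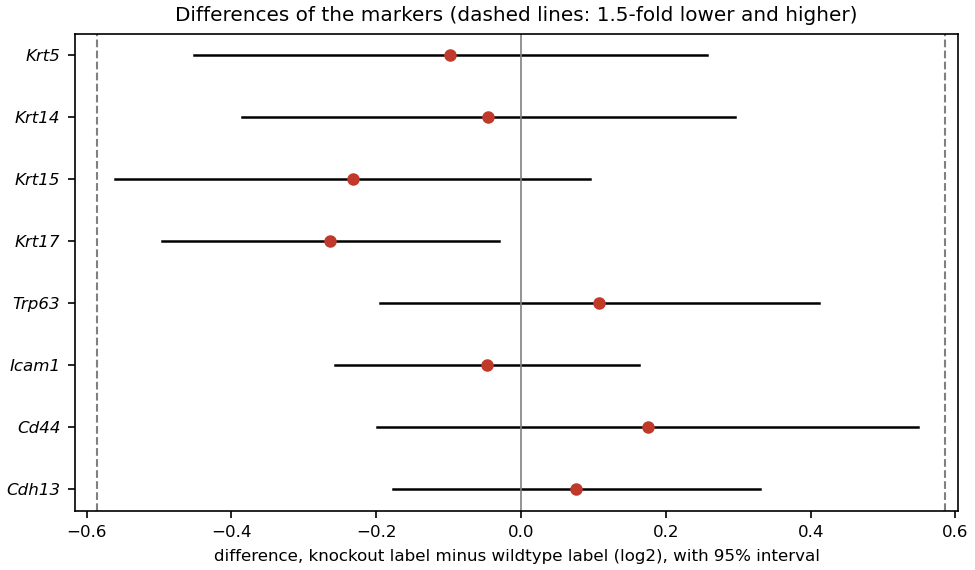
Log2 difference, arrays labelled knockout minus wildtype arrays (x axis), of each marker (rows), with its 95% interval from limma as a line. All 8 intervals lie between the dashed lines that mark 1.5-fold, and that of Krt17, from -0.50 to -0.03, is the one that leaves out 0.

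The markers did not vary in step across the 6 arrays. Trp63 and Cd44 had the most similar profiles of any pair, with a root mean square distance of 0.0685 log2 units between profiles centred on their own mean, and both were lowest in wildtype replicate 3 and highest in knockout replicate 1. Krt15 and Krt17 were next, at 0.107, followed by Krt5 and Krt14, at 0.119. Krt15 and Cd44 were farthest apart, at 0.343: Krt15 was highest in wildtype replicate 3, where Cd44 was lowest. Knockout replicate 2 was the lowest array for 4 of the 8 markers, Krt5, Krt14, Krt15 and Krt17, and above the mean for 1, Cdh13. Knockout replicate 1 was the highest array for 4, namely Krt14, Trp63, Cd44 and Cdh13.

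Genes outside the list with the profiles closest to a member were found by the same distance. For Krt5 they were Tbx3, a T-box factor, at 0.0207, then Gsc, a homeobox factor, at 0.0482 and Rtl8c at 0.0550. For Krt14 they were Cpped1 (0.0419), Lnx2 (0.0447) and Marchf1 (0.0457), and for Krt15 they were Tyrp1 (0.0449), Vmn1r54 (0.0553) and Lysmd4 (0.0560). For Krt17 they were Hspa2 (0.0322), Tmem63c (0.0345) and Hgfac (0.0348). For Trp63 they were Arhgap21 (0.0306), 2410002F23Rik (0.0319) and Asah2 (0.0327), and for Cd44 they were Tirap (0.0359), Fhl3 (0.0368) and Gnaq (0.0389). For Icam1 they were Srrm3 (0.0119), Ryr1 (0.0130) and Otoa (0.0177), and for Cdh13 they were Ldlrad3 (0.0254), Phf21a (0.0298) and Tiam2 (0.0301). The distance is not scaled by how much a gene varies, so a member that varies little lies near many flat profiles. Within 0.1 lay 152 single-gene clusters for Krt5 (SD over the 6 arrays 0.195), 669 for Trp63 (SD 0.163) and 2482 for Icam1 (SD 0.078).

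The small differences of Krt5, Krt14, Trp63 and Icam1 had opposite signs in pools of low and of high Y-linked signal. Among the arrays of low Y-linked signal (1 labelled knockout, 2 wildtype) the log2 difference was 0.05 for Krt5, 0.23 for Krt14, 0.28 for Trp63 and 0.32 for Cd44. Among those of high Y-linked signal (2 labelled knockout, 1 wildtype) it was -0.09 for Krt5, -0.14 for Krt14, -0.03 for Trp63 and 0.07 for Cd44. Krt17 was negative in both, at -0.23 and -0.35, as was Krt15, at -0.08 and -0.34. Icam1 was at -0.13 and 0.02 in the same order, and Cdh13 at 0.21 and 0.03. These comparisons rest on 3 arrays each and were not tested.

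Genes of the p63 programme and of basal epithelia were measured next. This list is broad, and its genes are not particular to horizontal basal cells. Of 26 measured genes of 28 listed, 0 were called in either direction, 11 were negative and 15 positive, and the median log2 difference was 0.03. Jag1, a Notch ligand, was at 8.81, 8.68 and 8.76 in the arrays labelled knockout and at 8.60, 8.58 and 8.50 in the wildtype arrays, a difference of 0.19 (limma adjusted p = 0.502). Fgfr2, a fibroblast growth factor receptor of epithelia, was at 9.23, 9.20 and 9.23 in the arrays labelled knockout and at 9.17, 9.01 and 8.76 in the wildtype arrays, a difference of 0.24 (limma adjusted p = 0.595). Groups did not overlap for 5 of the 26 genes, where 15.5% of all clusters were separated. Higher in the arrays labelled knockout were Jag1, Fgfr2 and Notch2 (0.10), and lower were Jag2, another Notch ligand, at -0.18 and the cadherin Cdh3 at -0.18, the last 3 named after their values were seen.

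Among hemidesmosome and basement membrane genes, 11 of 14 were measured, 0 were called, 5 were negative and 6 positive, and the median was 0.05. Plec, the plectin that links keratins to hemidesmosomes, was at 0.13 (limma adjusted p = 0.730), and Itga2, a collagen-binding integrin subunit, at 0.17 (limma adjusted p = 0.760). Among 7 measured genes of 8 in the list of desmosomes and envelope plakins, 0 were called and the median was -0.0002. The plakophilins Pkp2 and Pkp1 were at -0.13 (limma adjusted p = 0.793) and 0.15 (limma adjusted p = 0.831).

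Of 11 measured genes of 12 for the integrin partners and the NF-kappaB input of Icam1, 0 were called, with a median of 0.03. The NF-kappaB subunit Rela was at 0.22 (limma adjusted p = 0.825) and its inhibitor Nfkbia at -0.14 (limma adjusted p = 0.875). Of 9 measured genes of 10 for the hyaluronan partners of Cd44, 0 were called and 8 were positive, with a median of 0.07. Has2, a hyaluronan synthase, was at 8.61, 8.47 and 8.53 in the arrays labelled knockout and at 8.13, 8.31 and 8.36 in the wildtype arrays. The difference was 0.27 (limma adjusted p = 0.356). Its groups did not overlap, where 15.5% of all clusters were separated, 3.51% in this higher direction. Among genes named in neighbouring lists, Plec (higher) and Krt75 and Krt19 (lower) were separated as well. Hyal1, a hyaluronidase, was at 0.39 (limma adjusted p = 0.508).

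Of 11 measured keratins of 16 listed, 0 were called, with a median of -0.07. Krt75, a keratin of hair follicles, was at -0.29 (limma adjusted p = 0.327) and Krt19, a simple-epithelial keratin beside Krt15 in the genome, at -0.22 (limma adjusted p = 0.574). Krt4, of stratified epithelia without a cornified layer, was at -0.37 (limma adjusted p = 0.840), and Tgm1, a transglutaminase of the cornified envelope, at -0.10 (limma adjusted p = 0.890).

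Several genes of cornifying squamous epithelium spanned more of the scale across arrays than any marker did. The squamous list had 11 measured genes of 12, a median of -0.02 and 0 calls. Krt1, a keratin of differentiated epidermis, was at 6.45, 5.82 and 8.23 in the arrays labelled knockout and at 5.61, 5.94 and 7.50 in the wildtype arrays. Sprr3, a cornified envelope precursor, was at 8.28, 6.47 and 9.85 in the arrays labelled knockout and at 7.04, 7.64 and 9.38 in the wildtype arrays. Knockout replicate 3 was the highest of its group for 9 of the 11 genes and wildtype replicate 3 for 11 of the 11, and spans over the 6 arrays reached 3.39. The mean over the list ran from 6.21 to 7.53 in the arrays labelled knockout and from 6.29 to 7.50 in the wildtype arrays.

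In those 2 arrays the markers stood at different places in their ranges. Krt5 was at 8.69 in knockout replicate 3 and 8.61 in wildtype replicate 3, and Krt14 at 8.34 and 8.49, within the span of the other arrays. Icam1 was highest of its group in both, Krt15 was highest of all in wildtype replicate 3, and Trp63 and Cd44 were lowest there. With both arrays left out, 0 of the 8 markers were called, as with all arrays. The log2 difference was then -0.19 for Krt5, 0.0064 for Krt14, -0.16 for Krt15, -0.30 for Krt17, -0.0070 for Trp63, -0.09 for Icam1, -0.0005 for Cd44 and 0.20 for Cdh13 (limma adjusted p from 0.533 to 0.9997), so the signs of Krt14, Trp63 and Cd44 turned. That fit had 2 arrays per genotype and called 59 clusters lower and 4 higher in all.

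**Figure D3:**
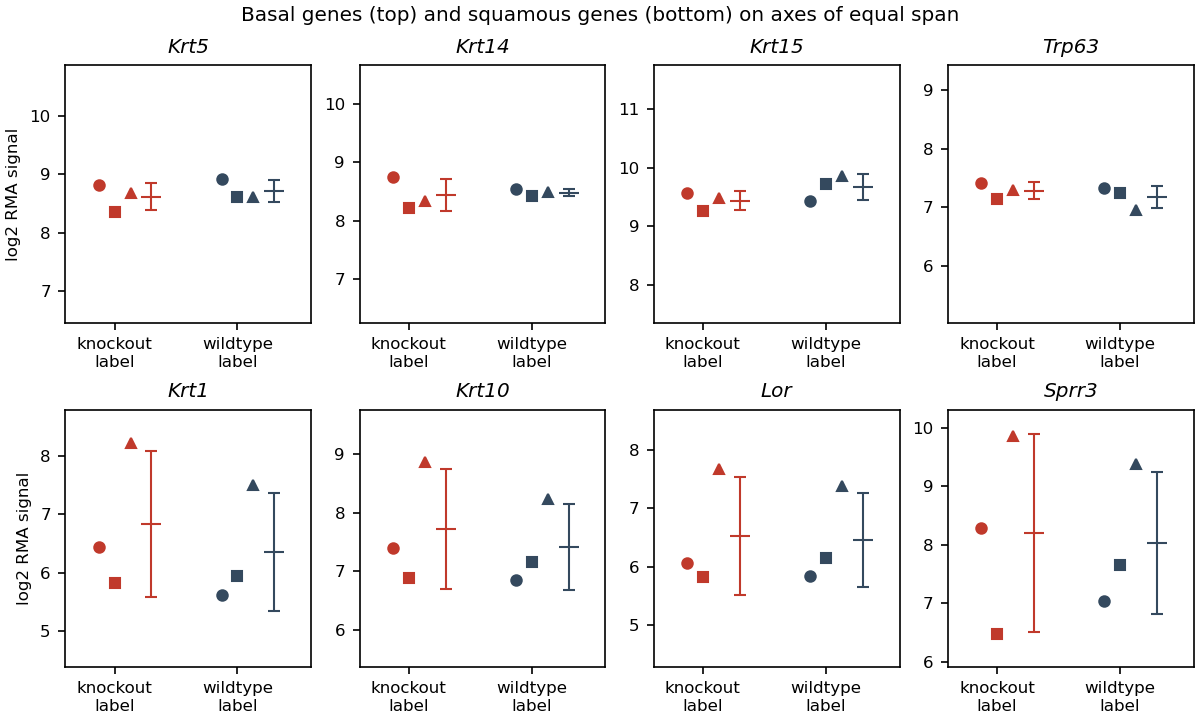
Log2 RMA signal (y axis, every panel spanning the same number of log2 units) of 4 basal genes (top row) and 4 squamous genes (bottom row) in the arrays labelled knockout (red) and the wildtype arrays (dark blue); circles, squares and triangles are replicates 1, 2 and 3, with the mean ± SD beside them. The triangle is highest in both groups for Krt1, Krt10, Lor and Sprr3, and the basal genes span at most 0.60.

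Cells that share single markers were checked through their own genes. Endothelial genes, which bear on Icam1 and Cdh13, had a median of -0.04 and 0 calls in 10 of 10, with Esam at -0.15 (limma adjusted p = 0.749) and Egfl7 at -0.14 (limma adjusted p = 0.766). Their mean over the list was between 8.21 and 8.40 in the arrays labelled knockout and between 8.27 and 8.50 in the wildtype arrays. Leukocyte genes, which bear on Cd44 and Icam1, had a median of 0.05 and 0 calls in 10 of 11, with Cd68 at 0.31 (limma adjusted p = 0.599) and Ptprc at 0.13 (limma adjusted p = 0.773), and their mean was between 7.50 and 7.71 in the arrays labelled knockout and between 7.45 and 7.67 in the wildtype arrays. Genes of myoepithelium and smooth muscle, which bear on Krt5 and Krt14 in glands, had a median of -0.03 and 0 calls in 5 of 6, with Cnn1 at -0.10 (limma adjusted p = 0.953) and Tagln at -0.03 (limma adjusted p = 0.990). The signs of both turned with single arrays left out, and Tagln's also when arrays were centred on their median or 75th percentile. Genes of ciliated and secretory respiratory cells, whose basal cells share Krt5 and Trp63, had a median of 0.02 and 0 calls in 8 of 11, with Dnah5 at 0.30 (limma adjusted p = 0.496) and Bpifb1 at -0.43 (limma adjusted p = 0.676). The part of any of these cells in the marker values was not tested.

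Values of other cells of the same tissue stand here for comparison. Of 11 measured genes of mature olfactory neurons (12 listed), 4 were called lower, S100a5 at -2.29, Ano2 at -1.21, Umodl1 at -1.07 and Rtp2 at -1.09, and the median log2 difference was -0.83. In 12 measured genes of mesenchyme, cartilage and bone (14 listed) 1 was called higher, Mmp13, a collagenase, at 1.31 (limma adjusted p = 0.00807), and the median was 0.39. The list of globose basal cells, the other basal population, and of neuronal progenitors had a median of -0.09 in 8 of 9 genes. Of these, 4 were negative and 4 positive, and 1 was called lower, Nhlh1 at -0.55 (limma adjusted p = 0.0217). Insm1 (-0.41), Neurog1 (-0.34) and Neurod1 (-0.21) were negative too. Top2a (0.17), Kit (0.15), Mki67 (0.10) and Lgr5 (0.04) were positive. These 7 were named after their values were seen, and the list's median hides this split. Sustentacular cells had a median of 0.19 in 8 of 10 genes and 0 calls, with Muc2 at 0.50 (limma adjusted p = 0.237) and Cyp1a2 at 0.74 (limma adjusted p = 0.363). With single arrays left out, the calls of Ano2, Umodl1, Rtp2 and Nhlh1 were lost in some cases, Nhlh1's in 6 of 6, while the log2 differences ran from -1.36 to -1.05 for Ano2, -1.22 to -0.97 for Umodl1, -1.24 to -0.97 for Rtp2 and -0.58 to -0.51 for Nhlh1. Without the 2 arrays of high squamous signal, the calls of S100a5, Ano2, Umodl1, Rtp2 and Nhlh1 were all lost (limma adjusted p from 0.0924 to 0.167). S100a5 was then at -1.96 (limma adjusted p = 0.0996). The calls of Rtp2 and Nhlh1 were also lost with Y-linked signal as a covariate (limma adjusted p = 0.0763 and 0.0687). Those of Umodl1, Rtp2 and Nhlh1 were lost with all probe sets (limma adjusted p from 0.0525 to 0.0710). Muc2 was called without wildtype replicate 1 (0.66, limma adjusted p = 0.0467). These values stand beside the median of -0.05 of the horizontal basal cell markers, and the differences between lists were not tested.

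**Figure D4:**
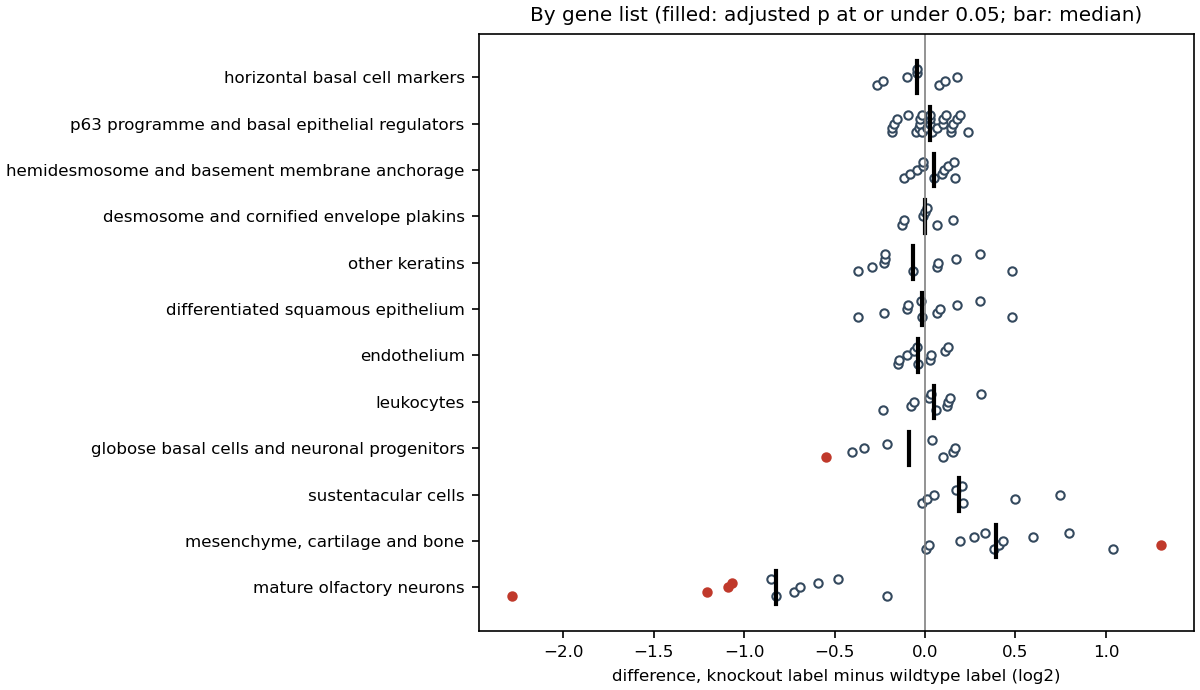
Log2 difference, arrays labelled knockout minus wildtype arrays (x axis), of each measured gene in 12 lists (rows), filled where limma's adjusted p is at or under 0.05, with the list's median as a bar. The horizontal basal cell markers, in the top row, lie between -0.26 and 0.18, with none filled, while the mature neuron genes have a median of -0.83.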

How the data were processed

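Total RNA of 6 pools was measured on Affymetrix Mouse Exon arrays. The deposited values are log2 signals, for which the submitters' processing notes name RMA and Affymetrix Expression Console as the authors' tools. RMA corrects background, equalises the distributions of arrays and gives 1 value per probe set, so a change in some exons only is diluted. The sources used here give no versions and no build. Of 23238 probe sets, the 16661 in the range of the platform annotation were tested, 14945 of them with 1 gene; the brightest cluster stood for a gene with several. Gene symbols came from that annotation.

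Arrays labelled knockout were compared with wildtype arrays by limma 3.58.1 in R 4.3.3 (lmFit, eBayes, two-sided, Benjamini-Hochberg over all clusters, threshold 0.05). On simulated data (16661 clusters, 3 and 3 arrays) changes of 1.5-fold were recovered in 42% of cases, of 2-fold in 96% and of 4-fold in 100%. Beside them 17 unchanged clusters were called, and 0 were called when no change was put in. The noise was drawn as independent normal values, with the variances that limma had already moderated across clusters. Array-wide differences, such as those of sex and squamous signal, were not simulated. Recovery in the real arrays may therefore be lower. Members and gene lists were chosen with earlier results of these data known, so lists are described by counts and medians. Named are the members, up to 4 called genes per list or else the 2 with the smallest p, and the 3 profiles nearest to each member; Krt1 and Sprr3 were named after their values were seen. Alternatives were 2 scalings, a filter on dim clusters, other variance and weighting options, the replicate number as a block, Y-linked signal as a covariate, all probe sets, the mean of a gene's clusters and each array left out. Plots used matplotlib 3.10.9. No 2 arrays shared more than 9 identical values.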

Additional observations from a re-analysis of the deposited data

How the results depend on the processing

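No marker was called under any alternative, and every call count of the markers stayed at 0. Krt15, Krt17 and Icam1 were negative under all 17 alternatives, 11 of which can move a marker's difference (the other 6 change only its error, the clusters tested or genes with several clusters), Krt17 between -0.33 and -0.22 (lowest limma adjusted p = 0.273, with array weights). The Krt14 difference turned to 0.0236 with array weights, to 0.0443 with the Y-linked covariate and to 0.0064 without the 2 arrays of high squamous signal, an alternative chosen after seeing the data. Without those 2 arrays Trp63 was at -0.0070 and Cd44 at -0.0005. With single arrays left out, the ranges were -0.1937 to 0.0338 for Krt5, -0.2007 to 0.061 for Krt14, -0.0017 to 0.18 for Trp63, -0.0001 to 0.17 for Cdh13 and -0.1025 to 0.0474 for the markers' median. The cause of these turns was not tested. Rela turned to -0.0945 without the 2 squamous arrays. Tagln turned to 0.0066 with median centring, 0.0091 with centring on the 75th percentile, 0.079 with array weights and 0.0467 with the Y-linked covariate, and Cnn1 to 0.0203 and 0.0279 with the last 2. With single arrays left out, Cnn1 ran from -0.27 to 0.13, Tagln from -0.22 to 0.15 and Tgm1 from -0.2043 to 0.013.

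The count of all clusters called lower (316) was 109 with the filter on dim clusters, 186 with the Y-linked covariate, 144 with all probe sets, 59 without the 2 squamous arrays and 145 to 224 without single arrays; the count called higher (24) was 4 without the 2 squamous arrays and 13 to 23 without single arrays. The median of the mesenchyme list (0.39) was 0.29 with array weights, 0.31 with the Y-linked covariate, 0.28 without the 2 squamous arrays and 0.30 to 0.50 without single arrays. Without the 2 squamous arrays the p63 list's median was -0.087 and that of the globose basal list -0.22, and the endothelial median ran from -0.0658 to 0.0748 without single arrays.

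The replicate numbers are shared by both genotypes, but no pairing of the arrays was seen. Deviations of same-numbered arrays from their group means correlated at 0.007, 0.049 and -0.167, and those of differently numbered arrays at -0.214 to 0.216. With 3 arrays per genotype, each centred on its group, these values cannot settle whether the arrays were paired. With the replicate number as a block, 168 clusters were called lower, 0 markers were called, and the calls of S100a5, Ano2, Umodl1, Rtp2 and Nhlh1 were lost (limma adjusted p from 0.0607 to 0.116) at the same log2 differences. Detection calls were not analysed here, so how far background compresses the differences of dim clusters is unknown.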
